A study of Arabidopsis thaliana with 24 samples.

Results

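The transcripts described here encode 5 enzymes of sugar and central carbon metabolism, compared between wild type Arabidopsis thaliana and the sut2 mutant. Members were the array probes annotated with exactly 1 gene where that gene was ATSPS4F (AT4G10120), PPDK (AT4G15530), AT4G17260, PRK (AT1G32060) or SBPASE (AT3G55800). Each gene had 1 such probe, which gave 5 of the 3439 probes on the array and 5 of the 692 that carry the name of a single gene. PRK and SBPASE belong to the Calvin cycle, and the other 3 enzymes act on sucrose, pyruvate and lactate. Both groups were of the ecotype Wassilevskija. The labels describe the mutant as without SUT2, a plasma membrane protein that carries or may sense sucrose, and name no other allele or treatment. Each group had 12 columns of total RNA, numbered 1 to 12, and the sources used here give neither tissue, age nor growth conditions. Nothing states that the columns came from separate plants, so p-values reflect the spread among columns, and that spread could be technical.

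In a green leaf the Calvin cycle fixes carbon in the plastid. PRK makes its carbon dioxide acceptor, ribulose bisphosphate, and SBPASE removes a phosphate from sedoheptulose bisphosphate in the part of the cycle that regenerates that acceptor. Triose phosphates leave the plastid and feed sucrose synthesis in the cytosol, where sucrose-phosphate synthase, encoded by ATSPS4F and its relatives, joins a glucose unit from UDP-glucose to fructose phosphate. Sucrose is then loaded into the phloem by transporters of the family to which SUT2 belongs. PPDK converts pyruvate to phosphoenolpyruvate, and lactate dehydrogenase, encoded by AT4G17260, interconverts pyruvate and lactate and is known for its part in fermentation at low oxygen.

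Intensities were on a linear scale with column means between 0.959 and 1.05. The column medians, from 0.338 to 0.425 in wild type and from 0.231 to 0.284 in the mutant, did not overlap. For testing, log2 values were therefore quantile-normalized, which gives all columns the same distribution, and each change below is mutant minus wild type on that scale unless stated otherwise. Over all probes, consecutive numbers of a group (1 and 2, 3 and 4 and so on) resembled each other more than other numbers did. Each call is therefore also given with the 6 sets of consecutive numbers averaged, 6 values against 6. No probe with a single gene name stood for the SUT2 gene (AT2G02860) or for another of the 4 sucrose transporters looked up, so the labels could not be checked against the mutated gene. None of 10 marker genes of root, flower and seed was measured either, so the tissue could not be checked. No value of the 5 enzymes was listed at 0; the lowest was 0.0886, above the floor of 0.00971 set for low values.

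ATSPS4F, the sucrose-phosphate synthase, rose in the mutant and was, of the 5 enzymes, the 1 that was higher in every number after normalization. Its deposited intensity in wild type had a lowest value of 0.597, a median of 0.800 and a highest value of 1.51, and in the mutant 0.650, 1.05 and 2.39. The groups overlapped. Columns of the same number were also compared, although no label pairs them. The mutant column was the higher one in 11 of 12 numbers on the deposited scale, with number 8 the exception. After normalization it was higher in 12 of 12. Of all probes, 7.07% were higher in the mutant in all 12 numbers after normalization. Normalized log2 levels averaged -0.43 ± 0.55 over the wild type columns and 0.23 ± 0.47 over those of the mutant (SD, n = 12 each). The transcript rose by 0.66 ± 0.21 on the log2 scale (SE), or 1.58-fold, with an adjusted p of 0.016 in limma over all probes. With consecutive numbers averaged the adjusted p was 0.13, and with the averaged sets also paired by number it was 0.015. Without scaling the change was 0.37 (adjusted p = 0.16), and with array weights 0.38 (adjusted p = 0.17). In these bulk samples a change in the number of cells of a type and a change in RNA per cell cannot be told apart.

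PPDK, which makes phosphoenolpyruvate from pyruvate, had the largest change of the 5 in the quantile-normalized fit to all 24 columns, though not in numbers 1 to 6 alone or without scaling. In wild type its deposited intensity ranged from 0.0886 through a median of 0.464 to 0.646, and in the mutant from 0.321 through 0.505 to 0.714. The mutant values lay within a narrow band, while the wild type values reached far below it in the higher numbers. Normalized log2 levels averaged -1.70 ± 0.92 over the wild type columns and -0.80 ± 0.24 over the mutant columns (SD, n = 12 each). The transcript rose by 0.90 ± 0.27 (SE), or 1.87-fold, with an adjusted p of 0.012. Normalized, it was higher in the mutant in 10 of 12 numbers, equal in number 2 and lower in number 5, and on the deposited scale it was higher in 8 of 12 numbers and 4 of 6 sets. With the sets averaged the adjusted p was 0.10, and 0.075 with these paired by number. Without scaling the change was 0.45 (adjusted p = 0.22), and with array weights 0.60 (adjusted p = 0.054).

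AT4G17260, the lactate dehydrogenase, rose in the normalized values, while its deposited values differed little between the groups. Its deposited intensity in wild type had a lowest value of 0.259, a median of 0.316 and a highest of 0.655, and in the mutant 0.238, 0.304 and 0.424. The mutant was higher in 7 of 12 numbers and in 3 of 6 sets on this scale. Normalized, its log2 levels averaged -1.85 ± 0.34 for wild type and -1.42 ± 0.25 for the mutant (SD, n = 12 each), a rise of 0.43 ± 0.13 (SE, adjusted p = 0.015) seen in 11 of 12 numbers. Number 7, where wild type had its highest value, was the exception. The adjusted p was 0.083 with the sets averaged and 0.058 with these paired by number. For this enzyme the normalized SD within sets of consecutive numbers (0.33) was larger than that between the set means (0.18). Without scaling between columns the change was -0.12 (adjusted p = 0.58), so the direction depended on the scaling.

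PRK, which makes the acceptor of carbon dioxide, showed the reverse arrangement, a difference in the deposited values that did not pass after quantile normalization or median centring and passed with cyclic loess (-0.35, adjusted p = 0.038). Its deposited intensity in wild type ran from 0.593 through a median of 0.932 to 1.48, and in the mutant from 0.479 through 0.636 to 0.733. The mutant column was the lower one in all 12 numbers, as it was for 16.4% of all probes on the deposited scale. Normalized, PRK had a change of -0.26 ± 0.12 (SE, 95% interval -0.51 to -0.0026, unadjusted p = 0.048, adjusted p = 0.11), with 9 of 12 numbers lower. With the sets averaged the change had an adjusted p of 0.36. Without scaling PRK fell by 0.62 (adjusted p = 9.57e-04, and 0.046 with the sets averaged), where 29.5% of all probes passed as lower (19.4% averaged). Leaving out wild type number 1, its lowest wild type column, gave -0.31 with an adjusted p of 0.040.

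SBPASE, the sedoheptulose-bisphosphatase, did not pass after normalization. Its deposited intensity in wild type had a lowest value of 0.249, a median of 0.457 and a highest of 0.608, and in the mutant 0.225, 0.310 and 0.374. Wild type columns were spread over a wider range than mutant columns, and 9 of 12 numbers were lower in the mutant. Normalized, the change was 0.04 ± 0.16 (SE, adjusted p = 0.87), with a 95% interval from -0.30 to 0.38. Without scaling SBPASE fell by 0.46 (adjusted p = 0.026), a call that was not kept with the sets averaged (adjusted p = 0.14).

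**Figure D1:**
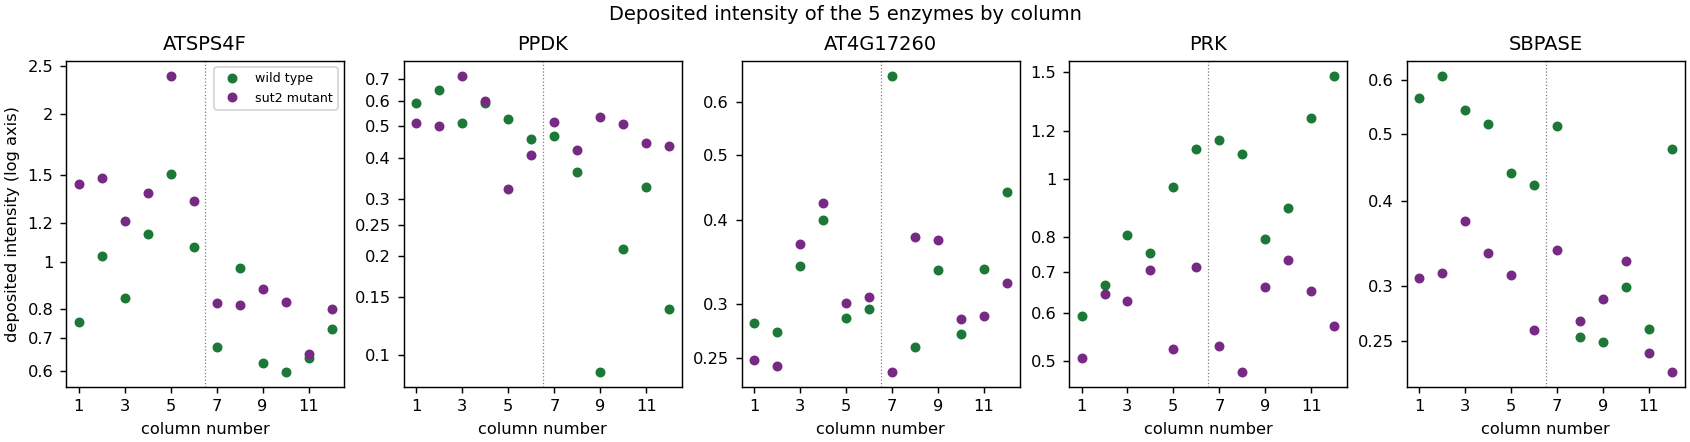
Deposited intensity on a log axis against column number for each enzyme, with green points for wild type and purple points for the mutant, and a dotted line between numbers 6 and 7. The PRK points of the mutant lie below those of wild type in all 12 numbers, and the PPDK points of wild type reach down to 0.0886 at number 9.

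Against the whole array, the members' calls were set beside those of all probes. Of the 5 enzymes 3 passed as higher and 0 as lower in the 24 columns, where 18.8% of all probes passed as higher and 15.9% as lower; among probes with a single gene name the shares were 18.1% and 14.7%. PRK, with an unadjusted p of 0.048, was the 1 enzyme under 0.05 in the lower direction before adjustment. With the sets averaged 0 of the 5 passed, where 5.38% of all probes passed as higher and 7.68% as lower, although ATSPS4F, PPDK and AT4G17260 each had an unadjusted p under 0.05 there (0.034, 0.024 and 0.016). With these sets paired by number ATSPS4F passed, where 10.3% of all probes passed as higher. The median change of the 5 was 0.43, against 0.10 over all probes, of which 56.2% had a change above 0. PPDK had a higher change than 91.6% of all probes, ATSPS4F than 84.7% and AT4G17260 than 71.4%, while SBPASE (46.1%) lay near the middle and PRK (31.0%) below it.

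**Figure D2:**
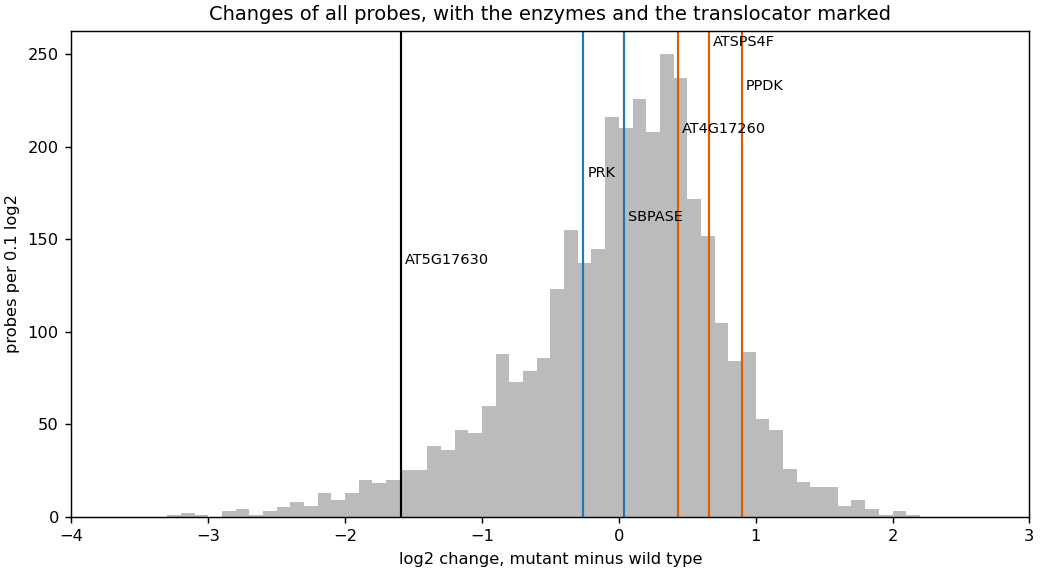
Histogram of the log2 change of all 3439 probes after quantile normalization, with orange lines for ATSPS4F, PPDK and AT4G17260, blue lines for PRK and SBPASE and a black line for the plastid translocator AT5G17630. PPDK stands at 0.90, and the black line at -1.59.

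The size of each change depended on the scaling. Over all probes the median change came to 0.10 with quantile normalization, 0.31 with each column centred on its median and -0.24 without scaling. Relative to that median, ATSPS4F changed by 0.56, 0.60 and 0.60 under the 3 scalings, and PPDK by 0.80, 0.68 and 0.68. The corresponding values were 0.32, 0.12 and 0.12 for AT4G17260, -0.36, -0.39 and -0.39 for PRK and -0.06, -0.23 and -0.23 for SBPASE. Median centring shifts all probes of a column by the same amount, so its relative values equal those without scaling by construction. The separate comparison is with quantile normalization, where the order of the 5 enzymes was the same, with PPDK highest and PRK lowest. These relative values carry no test of their own.

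**Figure D3:**
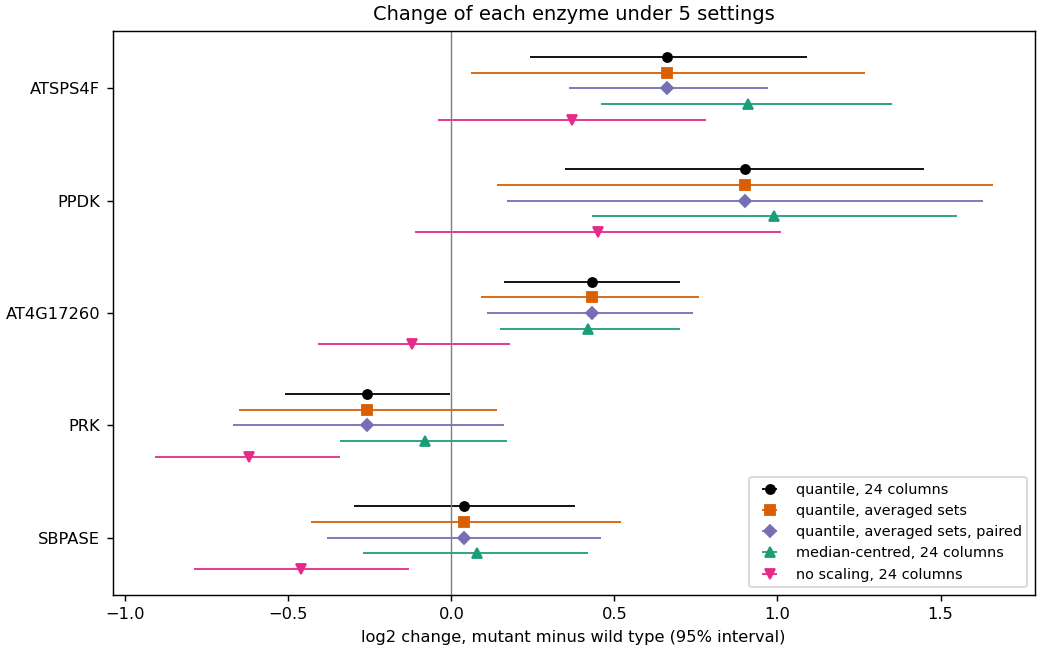
Log2 change of each enzyme, mutant minus wild type, with its unadjusted 95% interval under 5 settings: quantile-normalized values of 24 columns, the same with consecutive numbers averaged, the averaged sets paired by number, median centring, and no scaling. Without scaling all 5 points lie to the left of their main values. Those of AT4G17260 (-0.12), SBPASE (-0.46) and PRK (-0.62) then lie below 0.

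The comparison of the Calvin cycle enzymes with the others can be made within a column, where a common scaling cancels. The log2 ratio of 2 deposited intensities shows how the balance of the 2 transcripts differed between the groups, not the level of either. The ratio of ATSPS4F to PRK averaged -0.14 ± 0.62 for wild type and 0.85 ± 0.60 for the mutant (SD, n = 12 each), a difference of 0.99 or 1.99-fold, and was higher in the mutant in 12 of 12 numbers. Its columns ranged from -1.02 to 0.64 in wild type and from 0.00 to 2.20 in the mutant, so the groups still overlapped. The ratio of ATSPS4F to SBPASE differed by 0.83 and was higher in 11 of 12 numbers. The ratio of PPDK to PRK averaged -1.40 ± 1.12 for wild type and -0.32 ± 0.30 for the mutant, a difference of 1.07, and that of PPDK to SBPASE differed by 0.91; both were higher in 11 of 12 numbers. Lactate dehydrogenase showed the smallest shifts on the deposited scale, 0.51 against PRK (10 of 12 numbers) and 0.35 against SBPASE (8 of 12 numbers). That order was not kept after quantile normalization, where its shift against PRK was 0.68 and that of ATSPS4F against SBPASE 0.62.

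Over all 12 numbers the 6 ratios of deposited intensities were higher in the mutant by 1.27-fold to 2.10-fold, but not evenly over the numbers. The ratio of AT4G17260 to SBPASE differed by 0.69 in numbers 1 to 6 and by 0.00 in numbers 7 to 12, and that of PPDK to PRK by 0.22 and 1.92. In the normalized values the mean change of ATSPS4F, PPDK and AT4G17260 exceeded that of PRK and SBPASE by 0.77 ± 0.33 (SD over 12 numbers), with values from 0.44 to 1.66 and none below 0. The enzymes were divided with their earlier calls known, and those called as higher are the ones outside the Calvin cycle, so this difference is a description and was not tested.

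**Figure D4:**
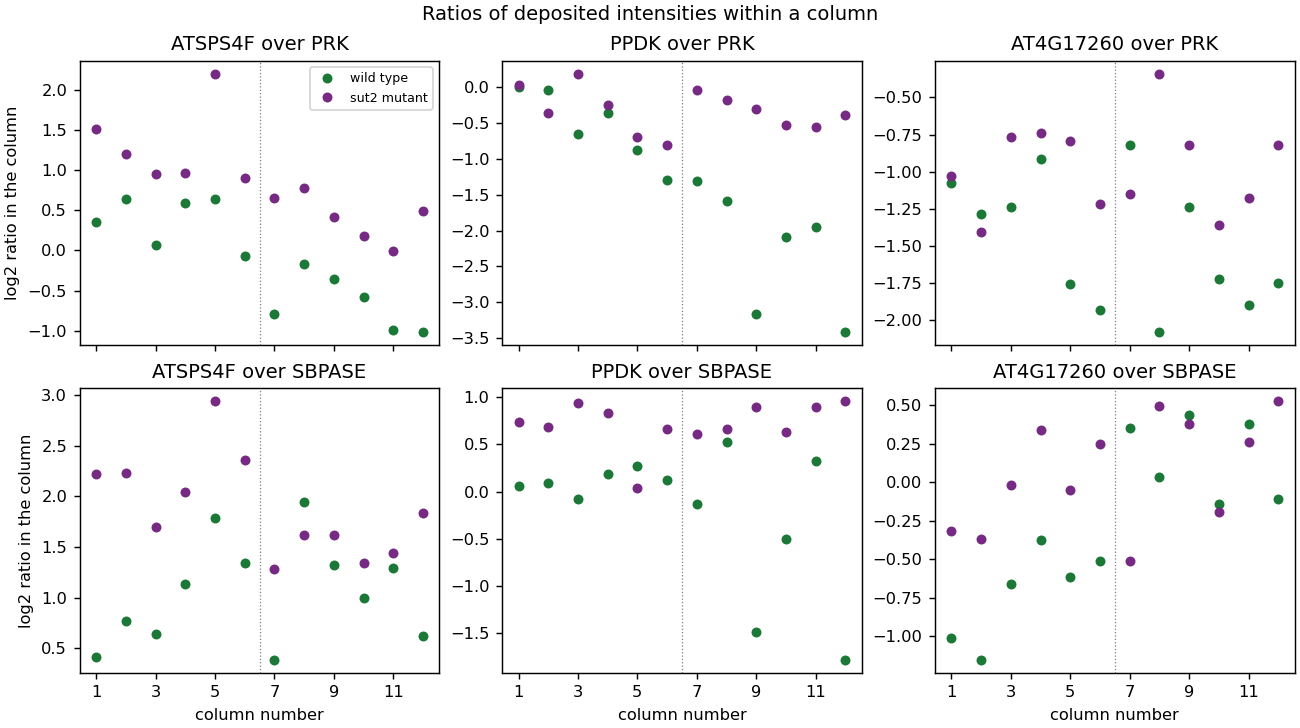
Log2 ratio of deposited intensities within a column against column number, for ATSPS4F, PPDK and AT4G17260 over PRK (upper row) and over SBPASE (lower row), with green points for wild type and purple points for the mutant. The ratio of ATSPS4F to PRK is higher in the mutant in 12 of 12 numbers, and that of AT4G17260 to SBPASE in 8 of 12.

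The column numbers fell into lower (1 to 6) and higher (7 to 12) numbers that differed from each other, and the 5 enzymes did not follow this division alike. ATSPS4F was lower in the higher numbers in both genotypes, by a log2 difference of -0.82 in wild type and -0.78 in the mutant, and its change came to 0.64 within numbers 1 to 6 and 0.68 within numbers 7 to 12. PPDK was lower in the higher numbers in wild type, from -1.02 ± 0.19 to -2.39 ± 0.82 (SD, n = 6 columns), and nearly level in the mutant, from -0.77 ± 0.33 to -0.83 ± 0.14. Its change therefore came to 0.24 within numbers 1 to 6 and 1.56 within numbers 7 to 12. In the higher numbers no normalized mutant value overlapped a normalized wild type value, as for 8.84% of all probes in that direction. On the deposited scale the groups overlapped there, with wild type reaching up to 0.469 and the mutant down to 0.424. The difference between the normalized changes in the lower and the higher numbers was 1.31 ± 0.46 (SE, averaged sets, unadjusted p = 0.017). It did not pass over all probes (limma interaction term, adjusted p = 0.59, and 0.082 with 24 columns).

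SBPASE resembled PPDK in this respect, with wild type lower by -0.78 and the mutant by -0.18 in the higher numbers, and its change went from -0.26 to 0.34. Normalized, SBPASE was lower in the mutant in 6 of 6 of the lower numbers and higher in 5 of 6 of the higher numbers. On the deposited scale it was higher in 0 of 6 of the lower and 3 of 6 of the higher numbers. PRK moved the other way in wild type, up by 0.32 in the higher numbers, and was level in the mutant (-0.03), so that its change came to -0.08 within numbers 1 to 6 and -0.43 within numbers 7 to 12. Fitted to the higher numbers alone, PRK passed as lower (-0.42, adjusted p = 0.027), as did 15.4% of all probes, but not with the sets averaged (adjusted p = 0.23). AT4G17260 changed by 0.52 and 0.33. Of the interaction terms of the 5 enzymes 0 passed in limma, on averaged sets or on 24 columns; SBPASE had an adjusted p of 0.66 on averaged sets (unadjusted 0.068) and of 0.21 on 24 columns (unadjusted 0.018). The sources used here do not say what distinguishes the lower from the higher numbers, and its part in these values was not tested.

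**Figure D5:**
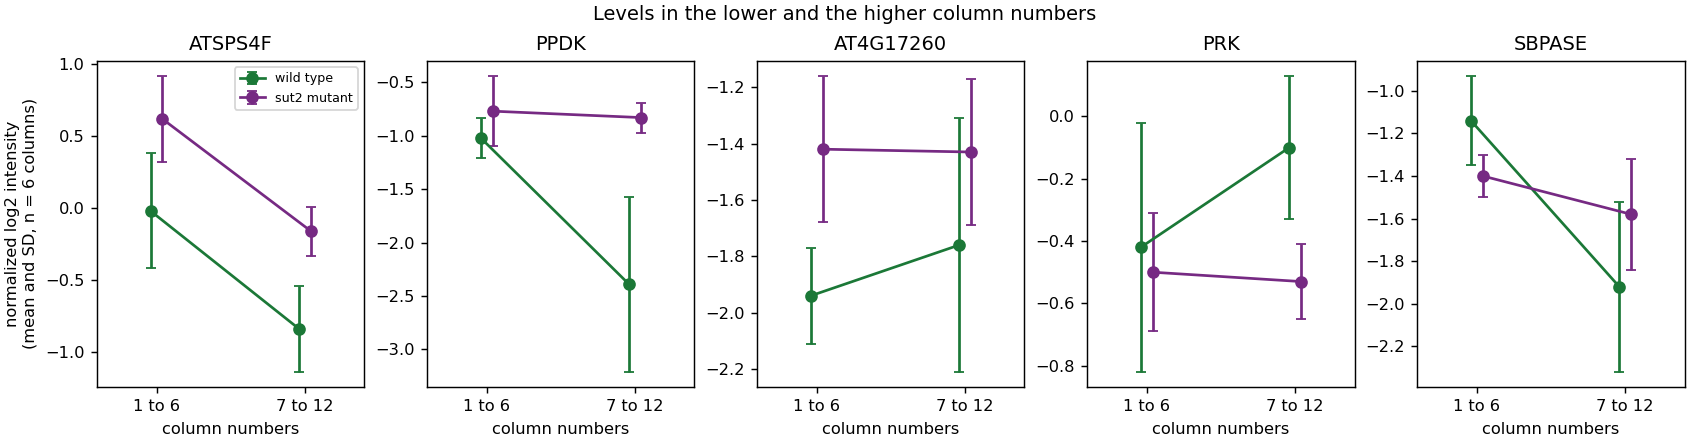
Mean normalized log2 intensity with SD (n = 6 columns) in numbers 1 to 6 and 7 to 12, in green for wild type and purple for the mutant. PPDK in wild type drops from -1.02 to -2.39 while the mutant stays near -0.8, and ATSPS4F is lower in the higher numbers in both groups.

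Few other genes of these pathways had a probe of their own. Of 139 genes listed for the Calvin cycle, sucrose synthesis and cleavage, pyruvate and malate metabolism, glycolysis, the oxidative pentose phosphate pathway, plastid sugar translocators and starch, 8 were measured, of which 3, all of them members, passed as higher and 1 as lower, where 18.8% and 15.9% of all probes did so. With the sets averaged 0 passed as higher, although the 3 members had unadjusted p under 0.05 in limma, and 1 as lower. Sucrose cleavage, glycolysis and starch had 0 measured genes. Besides the 5 enzymes these were a translocator, a malate dehydrogenase and a transaldolase.

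AT5G17630, the xylulose 5-phosphate translocator that exchanges pentose and triose phosphates across the plastid envelope, was the 1 that fell. Its deposited intensity in wild type had a lowest value of 1.35, a median of 1.89 and a highest of 3.07, and in the mutant 0.389, 0.499 and 0.942. The groups did not overlap on this scale or after normalization. Of all probes, 2.06% were separated in that direction after normalization, and the share on the deposited scale was not computed. The translocator fell by 1.59 ± 0.16 on the log2 scale (SE, 3.01-fold, adjusted p = 1.42e-07, 0.0021 with the sets averaged), and the mutant was lower in 12 of 12 numbers. Its change came to -1.51 within numbers 1 to 6, -1.67 within numbers 7 to 12 and -1.81 without scaling.

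AT5G58330, the NADP-dependent malate dehydrogenase of the plastid, had a change of 0.04 ± 0.20 (SE, adjusted p = 0.90), with 6 of 12 numbers higher in the mutant. It passed as higher with median centring (0.75, adjusted p = 0.0032), as did 30.6% of all probes. AT1G12230, a transaldolase of the pentose phosphate pathway, was listed at 0 in 6 wild type and 5 mutant columns, and its change of 0.33 ± 0.38 (SE, adjusted p = 0.53) is set partly by the floor. It was 0.79 without the values at 0 (adjusted p = 0.22), a fit that still held values raised to the floor, such as 0.000604 in mutant number 11. It passed as higher with median centring (0.90, adjusted p = 0.048), where the values at 0 also stood at the floor before centring. Without scaling the change was 0.36.

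To see which other transcripts varied like the 5 enzymes, each named probe's deviations from its group means were correlated with theirs over the 24 columns. The highest 2 of 690 are given for each enzyme, as a description without a test, since columns of the same division share their deviations. ATSPS4F was most like CML30 (Pearson r = 0.87, Spearman rho = 0.91) and NTRC (0.77 and 0.84). With the division also removed these r values were 0.53 and 0.25, so much of the likeness lay in the difference between the lower and the higher numbers. PPDK was most like AT4G14380 (r = 0.78, rho = 0.85, and r = 0.48 with the division removed) and AT3G57440 (r = 0.77, rho = 0.70, and r = 0.43). SBPASE was most like AT4G19430 (r = 0.83, rho = 0.85) and AT3G16310 (r = 0.82, rho = 0.79), with r = 0.60 and 0.64 once the division was removed. PRK was most like AT4G40080 (r = 0.68, rho = 0.71) and AT5G04600 (r = 0.64, rho = 0.66), with r = 0.60 and 0.58 once the division was removed. AT4G17260 was most like AT1G62760 (r = 0.54, rho = 0.36) and AT5G13410 (r = 0.54, rho = 0.40), and these r values were 0.57 and 0.54 with the division removed. No 2 of the 5 enzymes were among each other's closest pair.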

How the data were processed

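Intensities of 24 columns, 12 per group, were deposited by the authors on a linear scale; the sources used here do not give the image analysis, background correction or scaling. By their values, column means are near 1 and 20 columns reach a shared ceiling of 100. Groups and numbers were taken from the titles. Low values were raised to a floor at the 1st percentile of the positive ones (0.00971), converted to log2 and quantile-normalized, which hides any shift common to most transcripts. The test was limma 3.58.1 in R 4.3.3 (lmFit, eBayes), two-sided, over all 3439 probes, with Benjamini-Hochberg adjustment and a threshold of 0.05. Gene names were those of a possibly old platform annotation, updated through a TAIR10.1 gene table that matched 690 of 692 probes. No build is named for the probes, so no coordinates are given.

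The members, pathway lists and tests were chosen with earlier results of these data known. Named genes were the 5 members, the measured genes of the lists, and for each member the 2 named genes with the most similar deviations. Columns of the same number deviated from their group means together, with correlations of 0.14 to 0.40 (median 0.21) that exceeded 0.1 in 12 of 12 pairs. Columns of different numbers were not compared between the groups. A difference between lower and higher numbers that both groups share can also raise these correlations. No label pairs the columns, so pairing by number is an assumption. Within a group, consecutive numbers had correlations from 0.12 to 0.55 (median 0.32), other numbers a median of -0.16. The other pairs include those across the division into lower and higher numbers, and pairs inside a division were not taken separately. On simulated data of separate columns the fit recovered 19.8% of probes changed by a log2 of 0.5 and 63.8% of those changed by 1, 6.68% of calls being false. The simulated columns were independent and 200 probes were changed in each run. The deposited columns were correlated, so these rates need not hold for them. Alternatives covered the scaling, the floor, values at 0, blocks, averaging, weights, dim probes and each column left out. The number of arrays limits the precision.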

Additional observations from a re-analysis of the deposited data

How the results depend on the processing

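Changes are log2, mutant minus wild type, with the limma adjusted p in parentheses. Of 48 alternatives 24 left out a single column, and ATSPS4F, PPDK and AT4G17260 passed in all 24 of these. Over the 48 alternatives they passed in 35, 32 and 33 and lost the call in the following. Without scaling they were 0.37 (0.16), 0.45 (0.22) and -0.12 (0.58), with PRK at -0.62 (9.57e-04) and SBPASE -0.46 (0.026); with the sets also averaged these p were 0.39, 0.43, 0.71, 0.046 and 0.14. With consecutive numbers averaged the changes were 0.66 (0.13), 0.90 (0.10) and 0.43 (0.083), as a random block 0.66 (0.067), 0.90 (0.055) and 0.43 (0.16), and with the averaged sets and the replicate block PPDK (0.075) and AT4G17260 (0.058) did not pass. With median centring of averaged sets PPDK was 0.99 (0.057) and AT4G17260 0.42 (0.067). Array weights gave 0.38 (0.17) for ATSPS4F, 0.60 (0.054) for PPDK and -0.12 (0.58) for SBPASE. PRK passed with cyclic loess (-0.35, 0.038), in numbers 7 to 12 (-0.42, 0.027) and without wild type number 1 (-0.31, 0.040). In numbers 1 to 6 PPDK was 0.24 (0.31) and SBPASE -0.25 (0.15), and in numbers 7 to 12 AT4G17260 was 0.34 (0.25). With sets averaged inside these divisions ATSPS4F was 0.66 (0.19) and 0.68 (0.11), PPDK 0.24 (0.58) and 1.59 (0.062), AT4G17260 0.51 (0.25) and 0.34 (0.29), and SBPASE -0.25 (0.48) in the lower numbers. Averaging leaves fewer values, and the causes of these differences were not tested.

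With each column left out the changes ranged from 0.57 to 0.76 for ATSPS4F, 0.73 to 0.99 for PPDK, 0.39 to 0.51 for AT4G17260, -0.31 to -0.21 for PRK and -0.03 to 0.10 for SBPASE, and the first 3 passed each time. With the sets averaged and each set left out they ranged from 0.63 to 0.69, 0.65 to 1.08, 0.39 to 0.46, -0.34 to -0.18 and -0.05 to 0.15, with none passing. The replicate block alone changed no call of the 5 (ATSPS4F 0.66, adjusted p = 9.36e-05). Calls over all probes, 1196 in the main fit, were 449 with averaged sets, 759 with these and the replicate block, 619 with the random block, 706 averaged without scaling, 662 in numbers 1 to 6, and, averaged, 71 and 268 in the lower and higher numbers and 172 to 321 with a set left out; with each column left out they were 1088 to 1227. AT5G17630 passed as lower in 48 of 48 alternatives (-1.81 to -1.27), and AT5G58330 went to -0.28 in numbers 7 to 12, averaged or not, and ranged from -0.03 to 0.12 with a column and from -0.15 to 0.32 with a set left out. Within-division, averaged unscaled or median-centred, and set-out alternatives were chosen after seeing the data. No measure of background was used, so dim values cannot be told from it.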
